A study of Mus musculus with 28 samples.

Results

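The genes described here are 9 interferon-inducible genes: Usp18, Ifit1, Ifit3, Rsad2, Irf7 and Bst2, which act in the antiviral response, and B2m, H2-K1 and H2-D1, which encode the parts of the classical MHC class I molecule. They were chosen by symbol and with earlier results of these data known. They are 9 of the 18193 genes with a probe set of their own on the array. Together they had 23 such probe sets, a gene being represented by its brightest one, and 3 further probe sets shared with another gene were not used. All 9 passed the filter on low values.

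Expression had been measured on 28 arrays: 10 medulloblastomas (tumours of the cerebellum), 6 gliomas and 12 normal brain tissues of mice. The medulloblastomas comprised 5 p53-/- Rictor-/-, 2 p53-/- Rictor+/- and 3 p53-/- tumours in which Rictor was not targeted. The gliomas comprised 1 Rictor-/-, 4 Rictor+/- and 1 with p53 loss alone, and the normal brains 5 Rictor-/-, 5 Rictor+/-, 1 with p53 loss alone and 1 wild type. Every array but the wild-type one (Z2) thus shared the hGFAP-Cre transgene, a recombinase under the human GFAP promoter that is active in neural progenitors and glia, and the loss of p53; Rictor is the subunit that defines the kinase complex mTORC2. Per the labels the tumours held at least 70% tumour cells, and they do not say which further cell types made up the rest, or how old the mice were. Arrays are named by the code that ends their title, such as glioma B1.

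Interferons are secreted when a cell detects foreign or misplaced nucleic acid, and they act through receptors that switch on the kinases JAK1 and TYK2 and, through them, transcription factors such as IRF9. Those factors bind a short promoter element and raise a common set of genes, among them the antiviral effectors, the amplifier Irf7, the brake Usp18 and the class I antigen presentation machinery. In healthy brain, neurons and glia carry little class I, and microglia and vessels more. The study's title sets glioma of adults against medulloblastoma of the SHH class for what Rictor does, and the comparisons below ask how this gene set differed between each tumour and normal brain, between the tumours, and with Rictor genotype.

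The promoters are shown because the element that interferon-activated factors bind is what relates the members to one another outside the arrays. RefSeq's promoter table (GRCm38.p6) held 8 of the 9 members, all but Usp18. In the 250 bases before the transcription start, a motif of 10 bases was searched on both strands, GAAA followed after any 2 bases by GAAA again, together with its shorter core AANNGAAA, which lies inside every match of the longer motif. Of the 8 members 5 held the longer motif, against 2.98% of all 32851 promoters of the same length, and 7 held the core, against 21.3%. Ifit1, Ifit3 and Bst2 each had 2 matches of the longer motif, which 0.18% of all promoters had, those of Bst2 overlapping. In the 5 promoters below the core is in capitals, written TTTCNNTT where it lies on the other strand.
Ifit1, chr19:34640639-34640888, plus strand: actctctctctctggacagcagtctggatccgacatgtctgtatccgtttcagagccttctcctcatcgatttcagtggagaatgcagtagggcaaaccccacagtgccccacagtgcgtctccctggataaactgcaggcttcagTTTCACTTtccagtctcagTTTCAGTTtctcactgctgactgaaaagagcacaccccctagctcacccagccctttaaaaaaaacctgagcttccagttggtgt
Bst2, chr8:71537473-71537722, minus strand: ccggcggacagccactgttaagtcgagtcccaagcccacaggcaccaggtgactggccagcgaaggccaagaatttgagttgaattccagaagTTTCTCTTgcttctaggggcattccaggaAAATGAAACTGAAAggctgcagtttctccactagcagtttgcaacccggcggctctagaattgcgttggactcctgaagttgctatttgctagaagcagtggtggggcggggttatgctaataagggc
B2m, chr2:122147437-122147686, plus strand: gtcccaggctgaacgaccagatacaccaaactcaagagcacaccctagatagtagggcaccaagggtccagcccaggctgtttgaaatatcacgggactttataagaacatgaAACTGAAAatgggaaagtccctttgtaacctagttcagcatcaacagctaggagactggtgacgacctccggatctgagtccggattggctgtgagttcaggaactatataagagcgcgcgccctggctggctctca
H2-K1, chr17:34000334-34000583, minus strand: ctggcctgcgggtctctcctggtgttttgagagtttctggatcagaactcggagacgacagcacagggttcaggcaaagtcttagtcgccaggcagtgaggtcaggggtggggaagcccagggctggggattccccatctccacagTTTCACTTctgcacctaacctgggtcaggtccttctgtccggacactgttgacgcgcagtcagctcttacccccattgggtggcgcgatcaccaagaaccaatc
Irf7, chr7:141266425-141266674, minus strand: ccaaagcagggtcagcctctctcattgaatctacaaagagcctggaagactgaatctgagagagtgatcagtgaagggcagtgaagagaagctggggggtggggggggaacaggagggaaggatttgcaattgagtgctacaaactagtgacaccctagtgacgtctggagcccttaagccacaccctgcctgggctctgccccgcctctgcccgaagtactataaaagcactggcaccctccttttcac
H2-K1 and H2-D1 shared the core match TTTCACTT with the farther of the 2 matches in Ifit1, and neither letter string was found in this window of Irf7. A match is a description of the letters and not evidence of binding.

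On a linear intensity scale the 9 genes differed widely in how far they ranged. Between the lowest and the highest array the values spanned 281.3-fold for Usp18, 82.0-fold for Ifit1, 81.5-fold for Irf7, 64.8-fold for Bst2, 44.1-fold for Ifit3 and 43.6-fold for Rsad2. For the class I genes they spanned 14.6-fold for B2m, 13.5-fold for H2-K1 and 12.5-fold for H2-D1. The span of Usp18 starts from an intensity of 8.5, near the 6.3 added before taking log2, so its size is uncertain. The highest array was the same for all 9 genes, glioma B1, a p53-/- Rictor+/- tumour. Where leaving it out ended a member's call against normal brain, both differences are given. Other differences also moved without it, and only some of them are given.

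**Figure D1:**
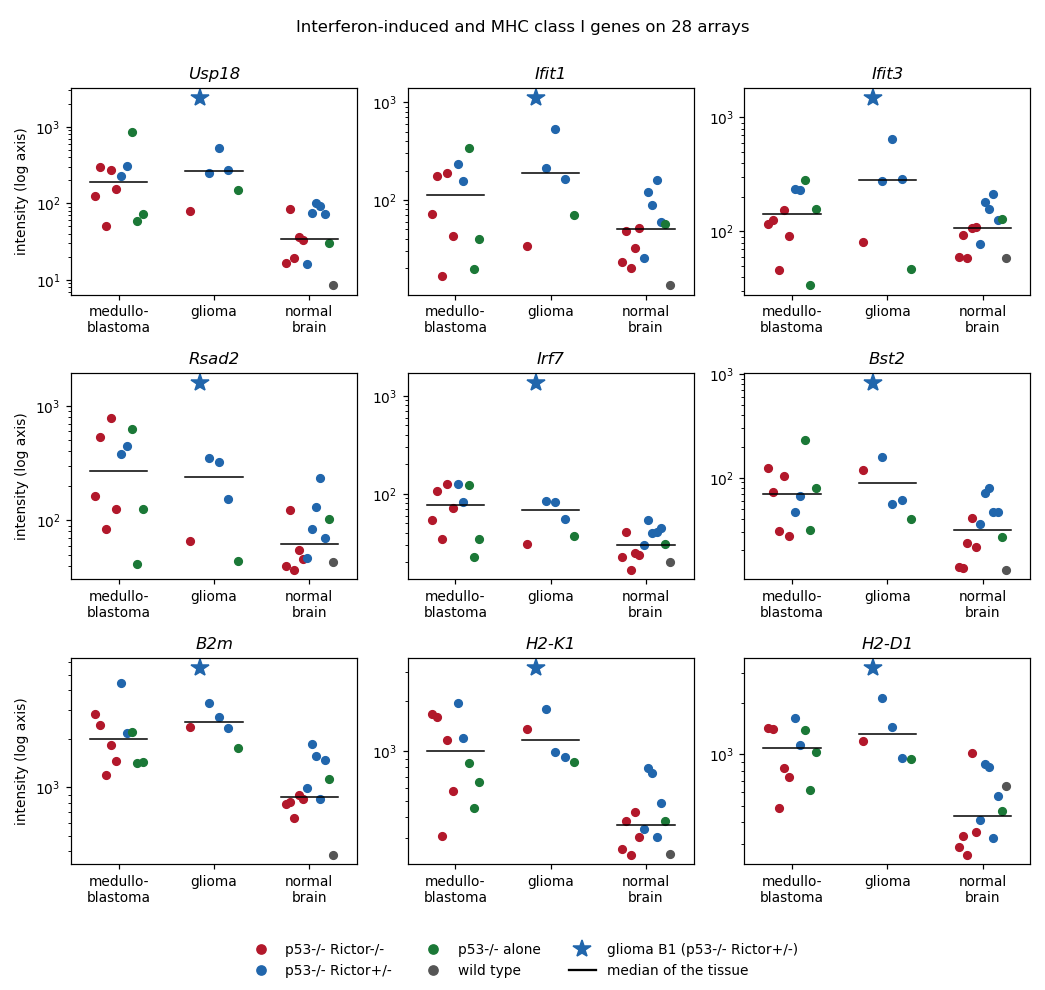
Intensity (log axis) of the brightest probe set of each of the 9 genes on the 28 arrays, by tissue, with Rictor genotype as colour, the median of a tissue as a line and glioma B1 as a star. Glioma B1 is the highest point in all 9 panels, and H2-K1 is the panel in which all 6 gliomas lie above all 12 normal brains.

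Interferon-induced genes were higher in medulloblastoma than in normal brain for most members, and so were the class I genes. In the limma fit of tissue and genotype over 28 arrays, 7 of the 9 passed an adjusted p of 0.05, all higher in medulloblastoma, where 64.2% of the 13931 tested genes passed in either direction and 32.2% were higher. The members' median log2 difference, on the scale of log2 intensity plus a pseudocount that all log2 values here use, was 1.23, against 0.01 for all tested genes. By unadjusted p under 0.05 the count was 8 of 9, against 67.0% of all genes. Without glioma B1, which enters the same fit, 8 passed, Ifit1 being added, against 64.3% of all genes. No member had all 10 medulloblastomas above all 12 normal brains, which 8.76% of genes had. In bulk tissue, more cells that express a gene and more RNA per cell cannot be told apart.

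Usp18, the protease that removes ISG15 from proteins and blocks the interferon receptor's signal, had the largest difference of the members. Its intensity was 51.1 at the lowest, 190.9 at the median and 847 at the highest of the 10 medulloblastomas, against 8.5, 34.4 and 101.8 in the 12 normal brains. Of the medulloblastomas, 7 lay above every normal brain, and the highest was A3, with p53 loss alone. The log2 difference was 2.13 (SE 0.47, adjusted p = 0.000314).

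Rsad2, which encodes viperin, an enzyme that makes a chain-terminating nucleotide, ran from 41.6 through a median of 270.5 to 788 in medulloblastoma, against 36.7, 62.5 and 234.5 in normal brain. The groups overlapped, with 5 of the 10 tumours above all normal brains, led by the Rictor-/- tumour C5 and by A3 at 624. The log2 difference was 1.92 (SE 0.49, adjusted p = 0.0013). Irf7, the transcription factor that amplifies interferon production, ran from 22.8 through 76.8 to 127 in medulloblastoma, against 16.7, 30.3 and 53.6 in normal brain. It had 7 of 10 tumours above all normal brains and a log2 difference of 1.24 (SE 0.41, adjusted p = 0.0104).

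Bst2, the tetherin that holds budding virus particles at the cell surface, ran from 27.2 through 69.3 to 233 in medulloblastoma, against 12.8, 31.5 and 79.8 in normal brain. With 3 of 10 tumours above all normal brains its difference was 1.02 (SE 0.42, adjusted p = 0.0342), and the call ended without any 1 of 8 arrays, medulloblastomas A3, C1, C2 and C5, normal brains A6, C1 and C2, or glioma A4 (log2 difference 0.87 to 1.01). Ifit1 and Ifit3, which bind viral RNA that lacks a proper cap, did not pass. Ifit1 ran from 16.8 through 113 to 337 in medulloblastoma, against 13.5, 50.1 and 160.8 in normal brain, a difference of 1.05 (SE 0.47, adjusted p = 0.0527), with 4 of 10 tumours above all normal brains. It passed without any 1 of 9 arrays, medulloblastomas A5, A6, C4 and C6, normal brains A6, B6, C2 and C6, or glioma B1 (1.01, adjusted p = 0.0462, without B1). Ifit3 ran from 33.8 through 141 to 286 in medulloblastoma, against 58.5, 108 and 212 in normal brain, a difference of 0.50 (SE 0.38, adjusted p = 0.247). Medulloblastomas A5 (33.8) and C4 (45.6) lay below every normal brain for it.

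The 3 class I genes all passed, with standard errors of 0.19 to 0.28. B2m, the invariant light chain of every class I molecule, was 1189.7 at the lowest, 1994 at the median and 4406 at the highest medulloblastoma, against 379.5, 873 and 1867 in normal brain. The difference was 1.13 (SE 0.19, adjusted p = 8.98e-06), with 5 of 10 tumours above all normal brains. H2-K1, one of the heavy chains that carry peptide, ran from 308 through 1005 to 1947 in medulloblastoma, against 236, 357 and 791 in normal brain (1.39, SE 0.28, adjusted p = 0.000116). Another heavy chain, H2-D1, ran from 484 through 1088 to 1643 in medulloblastoma, against 257, 438 and 1013 in normal brain (1.23, SE 0.26, adjusted p = 0.000223). Each heavy chain had 6 of 10 tumours above all normal brains. Probe sets of the heavy chains can take signal from near-identical class I genes and alleles, so which locus is measured is uncertain. Of the 10 further probe sets of the members that passed the filter (those of Rsad2, B2m, H2-K1 and H2-D1), 8 were called higher and none lower, and all 10 lay above 0.

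No single medulloblastoma was highest for all members. A3 led for Usp18, Ifit1, Ifit3 and Bst2 but had 846 for H2-K1, below the tumours' median. B4 (p53-/- Rictor+/-) had the highest B2m, H2-K1 and H2-D1, and also the highest Irf7 (127.0, where A3 had 123.0), with 47.0 for Bst2. Medulloblastomas C4 and A5 were low for Usp18 and H2-K1, with 51.1 and 58.8 for Usp18, inside the range of normal brain, and 308 and 455.5 for H2-K1.

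In glioma 7 of 9 members were likewise higher than in normal brain and none lower, where 53.9% of all tested genes passed and 28.4% were higher. Their median log2 difference was 1.45, against 0.05 for all tested genes. Without glioma B1, 4 members passed (Usp18, B2m, H2-K1 and H2-D1), all higher, where 50.7% of all genes passed and 26.4% were higher, so the members' share called in either direction was then below that of all genes. Their median without it was 1.08, against 0.04 for all tested genes. With B1, unadjusted p was under 0.05 for all 9 members, and for 58.7% of all genes.

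Usp18 had 2391 in glioma B1, 535 in B3, 276 in B7, 246.7 in B2, 148.5 in A4 and 78.7 in C3, against the 8.5 to 101.8 of normal brain. The Rictor-/- tumour C3 was the only glioma within the normal range. The log2 difference was 2.47 (SE 0.54, adjusted p = 0.000398) and 1.98 without B1 (SE 0.50, adjusted p = 0.00169). Ifit1 had 1107 in B1, 525.5 in B3, 209.9 in B2, 163.4 in B7, 69.8 in A4 and 34.3 in C3, with 4 of 6 gliomas above all normal brains. Its call (1.46, SE 0.54, adjusted p = 0.0243) ended without glioma B1 (1.08, adjusted p = 0.0911), and also without glioma B3 (1.28) or normal brain B1 (1.23).

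Irf7 was 1362 in B1 and 84.3, 82.8, 55.6, 37.6 and 30.7 in gliomas B2, B3, B7, A4 and C3. The difference from normal brain of 1.25 (SE 0.47, adjusted p = 0.0262) was 0.59 without B1 (SE 0.29, adjusted p = 0.0893). Bst2 was 829.9 in B1, 158.6 in B2, 119.3 in C3 and 40.1 to 60.3 in the others, a difference of 1.45 (SE 0.48, adjusted p = 0.0122), or 0.95 without B1 (adjusted p = 0.0537). Bst2 thus placed C3, the lowest glioma for Usp18 and Ifit1, above B3, B7 and A4.

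Ifit3 and Rsad2, by their brightest probe sets, did not pass with or without B1. Ifit3 had 1490.5 in B1, 650.2 in B3, 286.5 in B7, 278 in B2, 81.5 in C3 and 46.8 in A4 (0.93, SE 0.43, adjusted p = 0.0706), and its difference without B1 was 0.53 (adjusted p = 0.265). Rsad2 had 1598 in B1, 349 in B2, 323 in B3, 153.5 in B7, 66.3 in C3 and 44.5 in A4 (1.22, SE 0.56, adjusted p = 0.0688), and its difference without B1 was 0.75 (adjusted p = 0.245). With all arrays, 1 further probe set of Rsad2 was called by limma (1.36, adjusted p = 0.0339) and another was not (0.72, adjusted p = 0.18). The result for Rsad2 thus depends on the probe set. For Rsad2, gliomas B7, C3 and A4 lay within the range of normal brain, and for Ifit3 C3 did and A4 lay below it.

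All 6 gliomas lay above all 12 normal brains for H2-K1, a lack of overlap that 9.45% of all tested genes showed in this direction. The gliomas had 3184 in B1, 1788 in B2, 1349.8 in C3, 985 in B3, 913.5 in B7 and 859 in A4, against at most 791 in normal brain. The log2 difference was 1.67 (SE 0.32, adjusted p = 0.000101) and 1.48 without B1 (adjusted p = 0.000517). B2m had 5534 in B1, 3328 in B2, 2722 in B3, 2359.8 in C3, 2322 in B7 and 1747 in A4, with all but A4 above every normal brain (1.31, SE 0.22, adjusted p = 1.38e-05). H2-D1 had 3227 in B1, 2149.9 in B2, 1446 in B3, 1191.5 in C3, 951 in B7 and 941 in A4, the last pair lying within the normal range (1.53, SE 0.30, adjusted p = 0.000126). The order of the gliomas was thus nearly the same for the class I genes, and C3, low for Ifit1, Ifit3, Rsad2 and Usp18, was in its middle. Of the 10 further probe sets 9 were called higher in glioma and none lower.

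**Figure D2:**
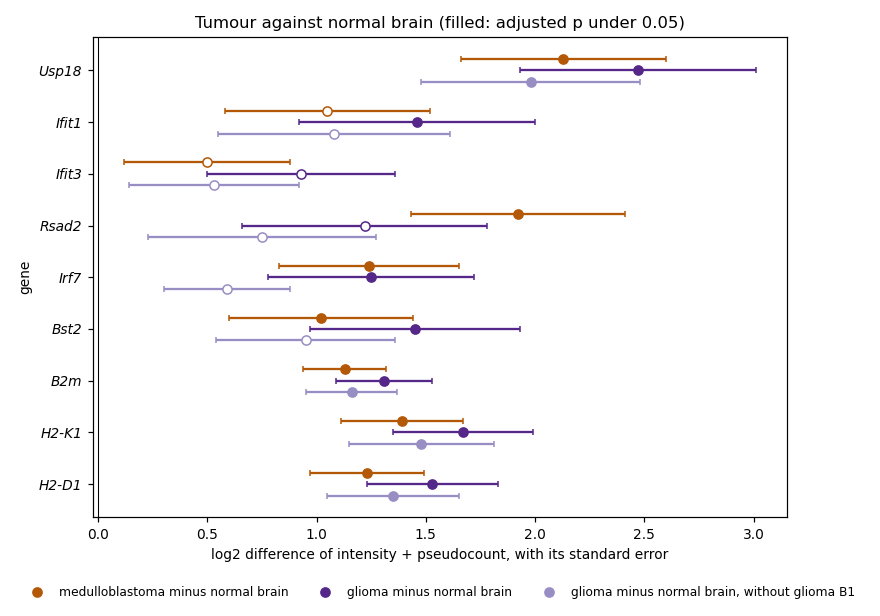
Log2 difference of each of the 9 genes (rows) between medulloblastoma and normal brain, between glioma and normal brain, and between glioma and normal brain without glioma B1, with standard errors. Filled points have an adjusted p under 0.05. The 3 class I genes and Usp18 stay filled in all 3 fits, and Irf7 is at 1.25 with glioma B1 and at 0.59 without it.

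Between the tumours, none of the 9 members passed in medulloblastoma against glioma, where 28.4% of all tested genes did, and none had an unadjusted p under 0.05 in limma, where 38.8% did. The log2 differences ran from -0.43 for Bst2 to 0.70 for Rsad2. Their 95% intervals were wide, from -1.51 to 0.84 for Usp18 and from -0.98 to 0.43 for H2-K1, and held differences of either sign. The ends of this range rest on glioma B1. Without it the differences ran from -0.14 for H2-D1 to 1.12 for Rsad2, with Bst2 at 0.01, Usp18 at 0.09, where it had been -0.33, and Irf7 at 0.57, where it had been -0.02. Again 0 of 9 had an adjusted or an unadjusted p under 0.05 in limma, unadjusted p being under it for 38.5% of all genes.

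Some features of the arrays differed between the tissues in the same comparisons. The ratio of 3' to 5' actin probe sets rises as RNA degrades. Medulloblastomas averaged 2.55 ± 0.829 (SD, n = 10), gliomas 2.23 ± 0.461 (n = 6) and normal brains 3.74 ± 1.42 (n = 12). The summed intensity of 15 microglia and macrophage markers, as a measure of those cells, ran from 2435 through 3465 to 6288 in medulloblastoma, from 2572 through 4259 to 10968 in glioma and from 1244 through 3715 to 4879 in normal brain. The ranges overlapped, and in the list 7 markers were higher and 3 lower in medulloblastoma, and 8 higher and none lower in glioma, or 10 higher without glioma B1. Of all tested genes 64.2% were called in medulloblastoma (32.2% higher) and 53.9% in glioma (28.4% higher), or 50.7% (26.4% higher) without glioma B1. With all arrays, the list's share called in either direction was thus near that of all genes in each tumour. Ptprc (CD45, on all leukocytes) was higher in medulloblastoma by 1.33 (SE 0.25, adjusted p = 5.43e-05), and P2ry12, a receptor of resting microglia, was lower (-1.08, SE 0.38, adjusted p = 0.0162). Of 10 T and NK cell markers 2 passed the filter, the sum being 46.3 to 168 in medulloblastoma, 50.4 to 88.7 in glioma and 54.0 to 93.1 in normal brain. The chains of the T cell receptor complex differed: Cd3d reached 36.7 in medulloblastoma, 4.9 in glioma and 3.1 in normal brain, Cd3g 43.4, 4.0 and 6.5, and Cd3e 6.0, 5.0 and 10.2. Medulloblastoma C1 held the highest Cd3d and Cd3g, and B4 came next with 24.8 and 26.9. Medulloblastomas C1 (167.7) and B4 (150.5) had the highest of these sums and also 55.2 and 63.2 in 3 B cell markers, against at most 27.8 in the other 8 medulloblastomas. The part of RNA quality and of these cells in the members' differences was not tested. Normal brains B2, C5 and Z2 were rich in Gabra6, a gene of cerebellar granule neurons (1740 to 4918, against 1.1 to 116 in the other 9), and without them 7 members passed against each tumour. The tissue labels fit most of their markers, with exceptions among arrays. Atoh1, the factor of granule neuron progenitors, was higher in medulloblastoma than in normal brain by 5.56 (SE 0.55), 7 of 8 neuron markers were lower in medulloblastoma and 8 of 8 in glioma, and 5 of 5 proliferation genes were higher in both. Of 8 astrocyte markers 1 was higher and 4 were lower in glioma. Normal brain C2 had a proliferation sum of 931, where the other normal brains had at most 375 and glioma A4 970, and medulloblastoma C6 a neuron sum of 10715, where the medulloblastomas' median was 2170. Without C2 and C6, 8 members passed in medulloblastoma and 7 in glioma against normal brain. The share of all genes that passed without these arrays, or without the Gabra6-rich brains, is not given here. With all arrays it was 64.2% in medulloblastoma and 53.9% in glioma.

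For the wider pathway, the counts of genes called are read against the 64.2% of all tested genes called in medulloblastoma (32.2% higher) and the 53.9% called in glioma (28.4% higher). The ligands themselves were hardly measured: of 10 interferon genes 6 had a probe set, 1 passed the filter, and that one, Ifna1, had a median of 8.6 in medulloblastoma and 9.7 in glioma and a range of 5.6 to 22.5 in normal brain, with no call. Ifnb1 had a median of 8.2 in medulloblastoma, 6.4 in glioma and 8.2 in normal brain. Of 5 receptor genes none rose in medulloblastoma and 1 fell, Ifngr2 of the interferon gamma receptor (-0.65), and 2 rose in glioma. Those were Ifnar2, a chain of the type I interferon receptor (0.85, SE 0.21, adjusted p = 0.0014), and Il10rb, a chain shared with interferon lambda (0.57, SE 0.22, adjusted p = 0.0342).

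Of 11 signalling genes 5 were higher and 2 lower in medulloblastoma, a share called that was near that of all genes, and 6 higher and 1 lower in glioma, with or without glioma B1. Irf9, the transcription factor named above, rose in medulloblastoma by 1.26 (SE 0.25, adjusted p = 9.84e-05) and in glioma by 1.36 (SE 0.29, adjusted p = 0.000282). Socs3, an inhibitor of JAK signalling that other cytokines also induce, rose by 2.52 (SE 0.26) in medulloblastoma and 1.51 (SE 0.29) in glioma, whereas the kinase Jak1 was lower in glioma (-1.21, SE 0.12, adjusted p = 1.44e-08) and in medulloblastoma (-0.66), where Jak2 was lower too (-0.46).

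The nucleic acid sensors showed 8 of 12 higher and 1 lower in medulloblastoma, and 6 higher and 1 lower in glioma, the same counts as without glioma B1. The lower one was in each tumour Adar, which edits double-stranded RNA so that it is not sensed (-0.85 in medulloblastoma, -0.74 in glioma). Ifih1, the sensor MDA5 of long double-stranded RNA, had a median of 173 in medulloblastoma and 143 in glioma, against 39.3 in normal brain, log2 differences of 2.02 (SE 0.41) for medulloblastoma and 1.52 (SE 0.47) for glioma. Cgas, the sensor of cytosolic DNA, rose by 1.80 (SE 0.30) in medulloblastoma and 1.35 (SE 0.35) in glioma. Several sensors, Ifih1 among them, are themselves induced by interferon.

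Among 40 other interferon-induced genes 31 were higher and 1 (Cmpk2, -0.58) lower in medulloblastoma (median 1.17), and 28 were higher and none lower in glioma (median 1.15), or 19 higher without glioma B1 (median 0.90, where 26.4% of all genes were higher). The immunity-related GTPase Iigp1 rose in medulloblastoma by 2.36 (SE 0.47) and was also higher there than in glioma (2.07, SE 0.57, adjusted p = 0.00793). Trim25, the ubiquitin ligase that activates the RNA sensor RIG-I, went the other way between tumours. It ran from 48.5 to 289 in medulloblastoma and from 568.1 to 1215 in glioma (medulloblastoma minus glioma -2.72, SE 0.29, adjusted p = 7.49e-08). Between the tumours 3 of the 40 were higher in medulloblastoma (Iigp1, Gbp2 and Ifitm2) and 3 lower (Trim25, Tor3a and Ifit2), of which Ifit2 did not pass without glioma B1 (adjusted p = 0.0588). Of all tested genes 28.4% were called between the tumours (13.6% higher, 14.8% lower), a larger share than of this list.

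In antigen processing 7 of 12 genes were higher and 1 (Psmb10, -0.51) lower in medulloblastoma, a share called near that of all genes. In glioma 9 were higher and none lower. Without glioma B1 it was 7 higher and 1 lower, since Tap2 and Psmb9 no longer passed and Psmb10 did (-0.57, adjusted p = 0.0245). Psmb8, a subunit of the immunoproteasome that cuts peptides for class I, had a median of 185 in medulloblastoma and 189 in glioma, against 37.4 in normal brain, log2 differences of 1.92 (SE 0.40) for medulloblastoma and 2.05 (SE 0.46) for glioma. Nlrc5, the transactivator of class I genes, rose by 1.61 (SE 0.31) in medulloblastoma and 1.62 (SE 0.35) in glioma. Tap1, which pumps peptides into the endoplasmic reticulum, rose in glioma by 1.22 (SE 0.37, adjusted p = 0.00736). Of 4 nonclassical class I genes Cd1d1, which presents lipids, rose by 3.40 (SE 0.37) in medulloblastoma and 2.05 (SE 0.43) in glioma, and in medulloblastoma Mr1 rose (1.54) and H2-Bl was lower (-1.40). Class II genes, which are confined to antigen-presenting cells in most tissues, were higher for 5 of 6 in medulloblastoma, with H2-Aa up by 2.87 (SE 0.50, adjusted p = 1.5e-05). In glioma 4 of 6 were higher, and none without glioma B1.

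Over the 28 arrays the 6 interferon-induced members correlated with each other at r = 0.717 to 0.915 over 15 pairs, the 3 class I members at 0.854 to 0.946, and the 2 kinds with each other at 0.638 to 0.839 over 18 pairs. Without glioma B1 the ranges were 0.554 to 0.924, 0.823 to 0.935 and 0.531 to 0.803. Within the normal brains alone, the 2 kinds correlated with each other at 0.096 (Rsad2 with H2-D1) to 0.805 (Bst2 with H2-K1). Within the medulloblastomas alone it was 0.373 (Bst2 with B2m) to 0.803 (Ifit3 with H2-D1). The arrays share tissue, genotype and RNA quality, and these coefficients are descriptions. The 6 genes most like Usp18 across the arrays were Irf9 (r = 0.946), Rtp4 (0.935), Irgm1 (0.935), Gbp3 (0.928), Oasl2 (0.919) and Samd9l (0.916), and each kept at least 0.895 without glioma B1. Among genes outside the members, the 6 most like H2-K1 were Psmb8 (0.941), Gbp3 (0.924), Irf1 (0.905), H2-Q5 (0.898), Nlrc5 (0.898) and Tap1 (0.895). The members B2m (0.946) and H2-D1 (0.914) were left out of that ranking.

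**Figure D3:**
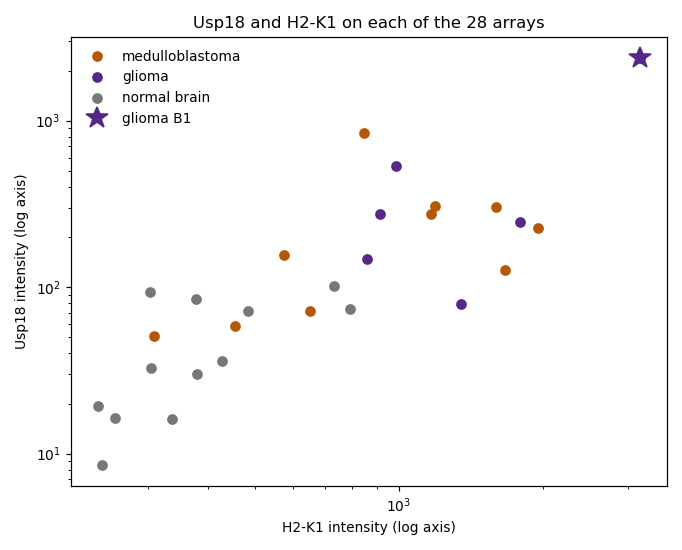
Usp18 against H2-K1 intensity (log axes) on each of the 28 arrays, coloured by tissue, with glioma B1 as a star. Glioma B1 stands apart at 2391 for Usp18 and 3184 for H2-K1, and the normal brains fill the lower left corner.

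Glioma B1 was above the 5 other gliomas for 9 of 9 members, which held for 20.2% of all tested genes. The members were chosen with earlier results of these data known, so the count is a description and not a test against that share. Against the median of the others it was higher by 4.47 on the log2 scale for Irf7, 3.65 for Bst2, 3.33 for Rsad2, 3.24 for Usp18, 2.71 for Ifit1 and 2.40 for Ifit3. For the class I genes the differences were 1.69 for H2-K1, 1.43 for H2-D1 and 1.23 for B2m. With 1 such array there is no replicate and no test. It was likewise above all other gliomas for 32 of 40 other interferon-induced genes, 9 of 12 antigen processing genes and 5 of 6 class II genes, and for none of 15 microglia and macrophage markers. The counts were lower for 12 nucleic acid sensors (5) and 11 signalling genes (4). They were 0 for 5 interferon receptor genes and 0 for 4 nonclassical class I genes. The microglia sum was 3786.5 in B1, against 2572 to 10968 in the other gliomas, and its actin ratio was 2.48. The sum of T and NK cell markers was the highest of the gliomas in B1 (88.7, against 50.4 to 68.8), but within the normal brains' 54.0 to 93.1. The markers in it that passed the filter lay within the other gliomas. Cd8a was 18.4 in B1, against 5.9 to 24.1, and Prf1 was 20.6, against 17.7 to 27.9. The sums of astrocyte markers (2779, against 3349 to 11051) and neuron markers (520, against 856 to 3962) were the lowest. Their part in the members' levels was not tested. Ifna1 was 3.5 and Ifnb1 5.4 in B1.

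The genes next to Irf7 on its chromosome were also high in this tumour, a pattern looked for after its values were seen. Of the 10 genes with the largest excess of B1 over the other gliomas, Cox8b, Ifitm3, Nlrp6, Irf7, Phrf1 and Psmd13 lie close together on chromosome 7 in the RefSeq gene order, and the other four were Postn, Fgf15, Ifi27l2a and Oasl2. Cox8b, a subunit of cytochrome oxidase found in muscle and brown fat and on none of the lists here, had 2329.9 in B1 and 0.8 to 17.6 in the other gliomas. Nlrp6, an innate sensor, had 310.3 in B1, against 1.4 to 10.1. Of the 30 tested genes nearest to Irf7, 15 on each side, 27 were higher in B1 than in every other glioma, with a median log2 difference of 2.86. The share of all tested genes was 20.2%. Of these neighbours 20 had their highest value of all 28 arrays in B1, against 0 to 4 of 30 around each other member. The share of all genes by that rule is not given here.

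Neighbours outside the interferon lists were among them. Phrf1, the gene next to Irf7, had 1428 in B1, against 54.9 to 349 in the other gliomas. Rnh1, a ribonuclease inhibitor, had 3979.9 in B1, against 122 to 692, and Ptdss2, a phospholipid enzyme, had 4408 against 234 to 1036. Not every neighbour moved: the interferon-induced Ifitm1 had 51.3 in B1, against 40.2 to 233 in the other gliomas, and Ifitm2 70.2 against 32.8 to 190, while Ifitm3 beside them had 7753 against 135 to 1376.

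Around the other members fewer neighbours stood out. Among the 30 genes nearest to each of Usp18, Ifit1, Ifit3, Rsad2, Bst2 and B2m, 4 to 9 were higher in B1 than in every other glioma, with medians between -0.23 and 0.22. These counts lie on either side of the 20.2% of all tested genes. Near H2-K1 the count was 16 and near H2-D1 10 (medians 0.51 and 0.34), in a region that holds other class I, class II and antigen processing genes. In glioma A4 the neighbours of Irf7 had a median of 1.10 above that of the other gliomas, while its Irf7 was 37.6. In A4, 1 of 30 neighbours lay above all other gliomas. That count says little, since the others include B1, itself the highest glioma for 27 of the 30. The normal brain with the same title prefix and code, also named B1, had 29.9 for Irf7, and 1 of 30 neighbours above all other normal brains, with 8.5 for Cox8b and 16.1 for Usp18. Whether the level of Irf7 in glioma B1 goes with its neighbours or with the other interferon-induced genes was not tested.

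**Figure D4:**
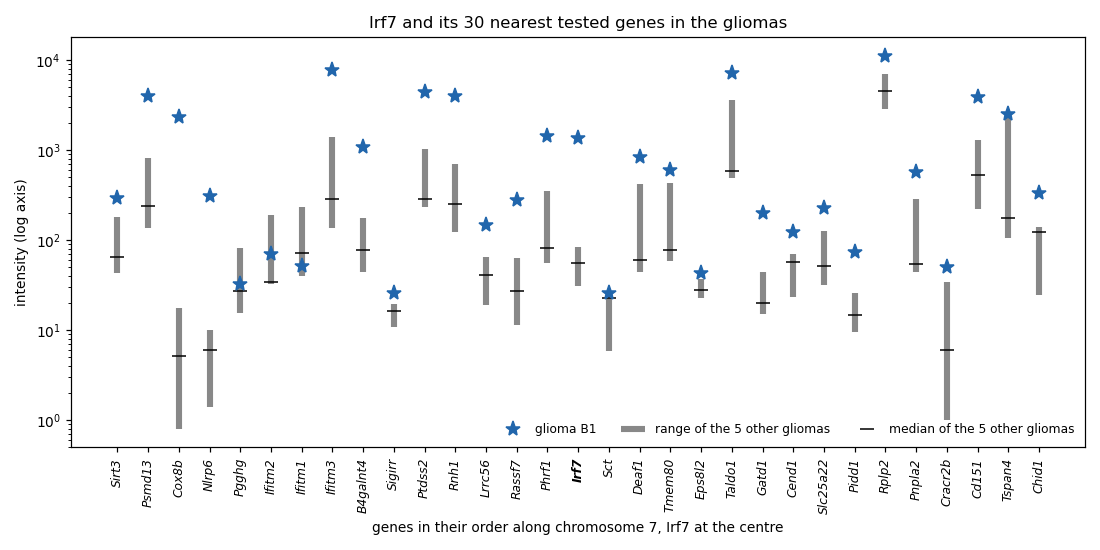
Intensity (log axis) of Irf7 and its 30 nearest tested genes, in their order along chromosome 7, in glioma B1 (star) and in the 5 other gliomas (bar from lowest to highest, median as a tick). For 27 of the 30 neighbours the star lies above the bar, and Ifitm1, Ifitm2 and Pgghg are the exceptions.

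Rictor genotype changed no member past an adjusted p of 0.05 in any of the comparisons made. Rictor itself had 171 ± 63.5 (SD, n = 5) in Rictor-/-, 269 ± 11.3 (n = 2) in Rictor+/- and 251 ± 25.9 (n = 3) in p53-only medulloblastomas, and 278 ± 95.5 (n = 5) in Rictor-/- and 282 ± 60.0 (n = 5) in Rictor+/- normal brains, so its probe set did not separate the genotypes in normal brain. Where its probe set lies relative to the deleted part is not stated in the labels.

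In normal brain, Rictor-/- against Rictor+/-, none of the 9 members and none of the 13931 tested genes passed (0.0% called by limma, an adjusted p of 1 for each member). All 9 differences were below 0, with a median of -0.75 against 0.01 for all tested genes, of which 48.2% were below 0. By unadjusted p under 0.05 the count was 6 of 9, all lower, against 3.15% of all tested genes in either direction and 1.8% lower. Bst2 had 40.9, 23.6, 21.6, 13.6 and 13.3 in Rictor-/- brains C5, C3, C6, C1 and C2, against 79.8, 70.4, 46.7, 46.2 and 36.0 in Rictor+/- brains B4, B2, B6, B7 and B1. The groups overlapped in C5 and B1 alone (-1.13, SE 0.28, unadjusted p = 0.00165). B2m had 897, 849, 806, 784 and 639.6 in Rictor-/- brains, against 1867, 1566, 1473, 992 and 849 in Rictor+/- brains, a difference of -0.71 (SE 0.20, 95% interval -1.15 to -0.26).

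The other 4 below an unadjusted 0.05 were Ifit1 (-1.08), Ifit3 (-0.75), H2-K1 (-0.64) and Irf7 (-0.60). Ifit1 had 52.3, 47.9, 32.7, 23.5 and 20.4 in Rictor-/- brains, against 160.8, 120.4, 88.6, 59.8 and 25.3 in Rictor+/- brains, where B1 was the lowest. Usp18 had 85.3, 36.0, 32.8, 19.3 and 16.4 in Rictor-/- brains, against 101.8, 93.1, 73.9, 72.0 and 16.1 in Rictor+/- brains (-0.82, SE 0.47). Leaving out 1 brain at a time kept all 9 differences below 0 and gave 4 to 8 members with an unadjusted p under 0.05, the lowest count without Rictor-/- brain C1 or C3 or Rictor+/- brain B2. Without the Gabra6-rich brains it was again 6. The share of all tested genes in these settings is not given here, so these counts cannot be set against it. Of 40 other interferon-induced genes 37 were below 0, 12 with an unadjusted p under 0.05, and of 12 antigen processing genes 11 and 4. Other lists moved with them. Endothelial markers were below 0 for 8 of 8 (median -0.26), astrocyte markers for 8 of 8 (-0.30), and microglia and macrophage markers for 14 of 15 (-0.38), while granule neuron markers were below 0 for 0 of 5 (0.72), where 48.2% of all genes were below 0. The microglia and macrophage sum ran from 1628 through 2996 to 4879 in Rictor-/- brains and from 3642 through 4189 to 4835 in Rictor+/- brains. The part of these cells in the members' differences was not tested.

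Medulloblastomas gave no call for Rictor-/- against Rictor+/- (0 of 9 members, 0.00718% of all tested genes, and 0 members by unadjusted p in limma, where 1.43% of all genes passed). Of the members 8 were below 0, where 48.7% of all genes were, with a median of -0.75. The 2 Rictor+/- tumours B4 and B6 had 227 and 305.5 for Usp18 and 1947 and 1190.5 for H2-K1, where the 5 Rictor-/- tumours ran from 51.1 to 302 for Usp18 and from 308 to 1666 for H2-K1. B6 exceeded them for Usp18 and B4 for H2-K1. For Ifit3 all 5 Rictor-/- tumours lay below both Rictor+/- ones, which held for 2.51% of all tested genes and for 1 of 9 members, with 155.5, 126.4, 117.0, 91.4 and 45.6 in Rictor-/- tumours against 237.0 and 230.1 in Rictor+/- tumours (-1.18, SE 0.64, unadjusted p = 0.0931). Against tumours with p53 loss alone it was again 0 of 9 (0.00718% of all genes, 0 by unadjusted p against 4.34% of all genes), with 4 of 9 below 0, where 43.3% of all genes were, and a median of 0.09. The tumours with p53 loss alone were themselves wide apart, with 847, 72.2 and 58.8 for Usp18 and 624, 125 and 41.6 for Rsad2 in A3, A6 and A5. The 95% interval for Usp18 ran from -1.74 to 1.68, and for B2m from -0.55 to 0.89.

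The effect of Rictor loss in medulloblastoma did not differ from that in normal brain for any member, 0 of 9 by adjusted and by unadjusted p in limma (0.0% of all genes called, 1.9% by unadjusted p). The intervals of that difference, from -0.96 to 0.91 for B2m and -2.27 to 2.41 for Usp18, held changes in either direction.

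The only Rictor-/- glioma, C3, had 34.3 for Ifit1 against 163 to 1107 in the 4 Rictor+/- gliomas, and 81.5 for Ifit3 against 278 to 1490.5 in them. C3 lay below all 4 for 5 of 9 members (Usp18, Ifit1, Ifit3, Rsad2 and Irf7), as it did for 19.7% of all genes. The difference was below 0 for 9 of 9 members (53.6% of all genes), 0 passed an adjusted p of 0.05 in limma (0.0215% of all genes did) and 4 had an unadjusted p under 0.05 (4.57% of all genes), with the single array assumed to vary like the other groups. Those 4 were Usp18, Ifit1, Ifit3 and Rsad2. Without glioma B1, 7 of 9 were below 0 (53.1% of all genes), with Bst2 at 0.52 and H2-K1 at 0.20, 0 passed an adjusted p (0.0287% of all genes) and 2 had an unadjusted p under 0.05 (5.16% of all genes), Ifit1 (-2.73) and Ifit3 (-2.11). The class I genes of C3 lay within the range of the Rictor+/- gliomas, with 1349.8 for H2-K1 against 913.5 to 3184.

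**Figure D5:**
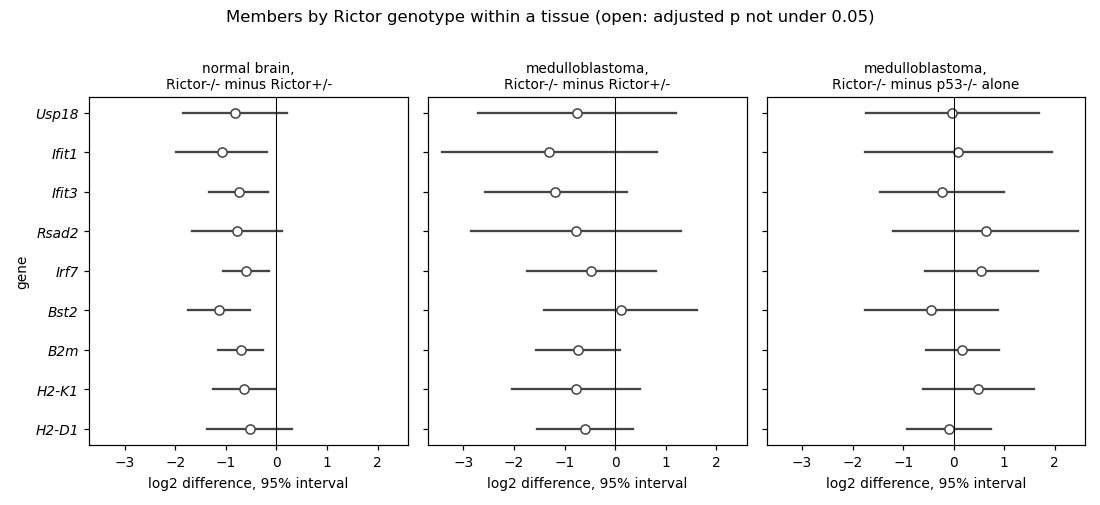
Log2 difference with 95% interval of each of the 9 genes in 3 comparisons of Rictor genotype: Rictor-/- minus Rictor+/- in normal brain, the same in medulloblastoma, and Rictor-/- minus p53 loss alone in medulloblastoma. No point is called, and in normal brain all 9 points lie below 0.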

How the data were processed

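The deposited values, intensity on a linear scale, had been made by the authors with MAS5 and GCOS, per the submitters' processing notes, which give no version. Each array had a trimmed mean of 100.0 and a median of 18.8 to 27.8. Per the labels' protocols, tumours were snap frozen and RNA was isolated with TRIzol and a column. Nothing in the labels says that a group's arrays came from different mice, and p-values therefore cover the spread between samples, which can be technical. The number of arrays limits the precision.

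Genes were named through the platform annotation (34945 of 45101 probe sets with 1 symbol, 932 with several, 9211 with none listed; 64 controls left out). The brightest probe set stood for a gene. A pseudocount of 6.3 was added before taking log2, which understates changes of dim genes, and 13931 genes with a mean above the 30th percentile (3.88 on the log2 scale) were tested. limma 3.58.1 (R 4.3.3; lmFit, eBayes with trend, two-sided) was fitted with tissue and genotype over 28 arrays for tissues (the wild-type Z2, alone in its genotype, adds nothing to the differences), within a tissue for genotypes, and with 10 group means for glioma genotypes and the interaction. Benjamini-Hochberg adjustment ran over all 13931 genes, and a gene was called under 0.05. The code was tested on simulated data. Tables and figures used matplotlib 3.10.9, pandas 2.3.3 and numpy 2.4.6 under Python 3.11.15.

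Members and lists were chosen with earlier results of these data known. Named genes are the 9 members and, from each list, up to 3 called genes with the largest difference per tissue comparison. With under 2 called, the 2 brightest are named. Also named are the 6 genes outside the members most like Usp18 and H2-K1, and the 10 with the largest excess in glioma B1. Ifngr2, Jak2 against normal brain, Adar, Cmpk2, Tor3a, Ifit2, Psmb10, Ifnb1, Cd3d, Cd3e and Cd3g were added after their values were seen. So were Tap2, Psmb9, Ifitm1, Ifitm2, Pgghg, Rnh1 and Ptdss2. Of the lists that describe the tissues, astrocyte markers had 0 of 8 higher and 6 lower in medulloblastoma, and 1 higher and 4 lower in glioma; endothelial markers 0 of 8 higher and 3 lower in medulloblastoma, and 1 higher and 2 lower in glioma; dendritic markers 1 of 3 higher and 2 lower in each; granule neuron markers 4 of 5 higher in medulloblastoma and 0 in glioma; and the 1 tested B cell marker no call. Gene order and promoters are RefSeq's (GRCm38.p6); the array annotation states no build. Title numbers were checked as pairs of tumour and brain: of 8 pairs 7 had a value and 4 correlated above 0.1. The values, from -0.041 to 0.261, do not decide whether a pair shares a mouse. The main fits did not use the pairs, and a block on them was run as an alternative. Of the design's 22 medulloblastomas and 24 normal brains, those beyond the 10 and 12 here were not used. Alternatives were 2 other pseudocounts, no filter, quantile normalization, all probe sets, title prefix as a term or within each prefix, no genotype term, a block, arrays that stand apart left out, and each array left out.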

Additional observations from a re-analysis of the deposited data

Results flagged for a closer look

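Arrays were flagged where the gap from an extreme value to the next of its group, on the log2 scale, took an unusually large share of the group's range (Dixon's criterion at the 95% level). Of 54 groups of members' values 4 were flagged, and chance alone flags about 1 in 20. Irf7 in glioma B1 stood apart with 1361.6, where the next glioma had 84.3, both among all 6 gliomas and among the 4 Rictor+/- ones; its 30 chromosomal neighbours are described above.

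Usp18 in normal brain B1 was the lowest of the 5 Rictor+/- brains with 16.1, the next having 72.0. Without this brain 8 of 9 members had an unadjusted p under 0.05 in Rictor-/- against Rictor+/- brain, and 0 an adjusted one by limma. The share of all tested genes without it is not given here. The count therefore does not tell whether the members or all genes moved.

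H2-D1 in normal brain C5 was the highest of the 5 Rictor-/- brains with 1013.0, the next having 349.7. A further H2-D1 probe set had 946.4 in C5, while H2-K1 had 427.1 there and B2m 896.8. The wild-type brain Z2, which like C5 is rich in Gabra6, had 649.6 for H2-D1 beside the lowest B2m of all arrays, 379.5. The cause was not tested.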

How the results depend on the processing

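In medulloblastoma against normal brain 4 of 9 members passed within the YZ arrays alone, and 7 or 8 under every other setting that keeps all arrays of the design or drops the arrays that stand apart; leaving out each array in turn gave 6 to 8. In glioma against normal brain 4 passed within the YZ2 arrays, which hold 2 of the gliomas, and 7 to 9 under the other such settings; leaving out each array in turn gave 4 (without glioma B1) to 9. Fewer arrays enter the fits within a prefix. Whether that or a difference between the prefixes goes with the lower counts was not tested. With the replicate block of tumour and brain that share a title number, 7 members passed in medulloblastoma and 9 in glioma against normal brain, Ifit3 and Rsad2 being added, and 0 in the other comparisons it was run on. The other 6 comparisons stayed at 0 under every setting run. In the main fits 64.2% of all tested genes passed in medulloblastoma and 53.9% in glioma against normal brain. Their share under each alternative is not given here, except without glioma B1. The member counts therefore do not tell whether the members or all genes moved. Of 2169 alternative values for single members (72 results), 2120 kept direction and side of the threshold, 29 passed newly, 20 no longer passed and none that was called reversed, while 81 changed sign without being called. The glioma comparison of Rictor genotype rests on 1 Rictor-/- array.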
